A study of Mus musculus with 3 samples.

Results

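Ccl2, Ccl12, Ccl3, Ccl4, Ccl6, Ccl9, Cxcl1, Cxcl2, Cxcl10 and Pf4 are 10 chemokine genes of mouse, out of 30406 genes that the 3 gene tables of the study share by Ensembl identifier. They were chosen by their UMI counts in myeloid cells of these same fetal lungs, so their levels by cell class are given below as a description, with no test. Tests were kept to contrasts that the choice did not use: libraries of the 2 sorting gates, and dividing against other macrophages. The tests use the same cells, and genes and tests were chosen with earlier results of these data known. The tests are therefore not independent of the choice.

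Chemokines are small secreted proteins that bind receptors of the G protein-coupled family and direct the movement of leukocytes. The CC and CXC families are named for the spacing of their first cysteines. Macrophages enter the lung before birth, from the yolk sac and the fetal liver, and release chemokines when tissue is injured or infected. Basophils and mast cells are granulocytes of the type 2 immune response and release chemokines on activation.

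The cells came from lungs of C57/B6 mouse embryos at embryonic stage E14.5. The lungs of embryos from 2 females were pooled, cut up, digested with Dispase, Collagenase A and DNase, freed of red blood cells, and stained for Epcam, an epithelial adhesion molecule, and Icam1, a leukocyte adhesion molecule. Single-cell 3′ libraries (10x Chromium) were made from 2 samples sorted as Epcam+ Icam+ and 1 sample sorted as Epcam+. No treatment or allele is named, embryos are not told apart, and nothing in the labels says that the 2 Epcam+ Icam+ samples came from separate animals, so spread between them may be technical.

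The 3 libraries held 4739, 4531 and 3697 barcodes with 67843828 to 84460347 unique molecular identifiers (UMIs, 1 for each captured transcript molecule) each, and 3271, 3052 and 2902 cells were used. The Epcam+ library stands apart: its file header names Cell Ranger 3.0.2 where the others name 5.0.1, and its gene table and barcode set differ. Of 479 barcode starts in it, 127 occur in the first Epcam+ Icam+ library, against 950 shared between the Epcam+ Icam+ libraries. Sort, software and barcode set cannot be told apart here. The Epcam+ Icam+ libraries shared 3 whole barcodes, and the Epcam+ library shared 0 and 1 with them.

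Macrophages were barcodes of clusters with most of 15 macrophage markers, at least 5 UMIs of C1qa, C1qb and C1qc, and under 0.05% of their UMIs from Epcam, Cdh1, Krt8 and Krt18. They numbered 413, 403 and 45 cells, in the order Epcam+ Icam+ 1, Epcam+ Icam+ 2, Epcam+, an order kept throughout. Basophil/mast cells were barcodes with at least 5 UMIs of Mcpt8, Hdc and Cyp11a1 together, in 26, 31 and 23 cells. Epithelium was barcodes with under 5 UMIs of C1qa, C1qb and C1qc in clusters named epithelium, or in unnamed clusters whose most raised markers were epithelial. It took 2389, 2165 and 2580 cells. In the Epcam+ library 771, 384 and 203 of these came from unnamed clusters 18, 20 and 13. Unnamed cluster 6, with Vpreb3, Vpreb1 and Cd79a among its leading genes, gave 162, 155 and 1 cells. Unnamed clusters 2 and 13 were shallow, with medians of 3250 and 1971 UMIs. No cell of any library had 5 to 7 UMIs of the basophil/mast genes, 1 cell had 3 or 4, and the gated cells had medians of 60.5, 60 and 70.

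Summed over each class, most markers fitted these names. At 20 CPM or more (UMIs of a gene in each 1000000 UMIs of those cells) stood 15, 15 and 14 of 15 macrophage markers in macrophages 12, 11 and 12 of 12 basophil/mast markers in the gate, and 12, 12 and 11 of 14 epithelial markers in epithelium. Markers listed for other classes were also counted. Epithelial markers summed to 369, 321 and 582 CPM in macrophages and to 1930, 1152 and 2861 CPM in the gated cells, against 10263.5, 10660 and 6182 CPM in epithelium. Macrophage markers summed to 4575, 4905 and 2408 CPM in the gated cells, with 2, 3 and 5 of 15 at 0 and a median of 0 C1q UMIs per gated cell. That list holds Tyrobp, Fcer1g and Ctss, which other myeloid cells share. Whether these UMIs are the cells' own or come from other classes, and their part in the values below, was not tested. Barcodes with both macrophage and epithelial genes, 160, 126 and 63 of them, were kept out of the macrophages. In the Epcam+ library they outnumbered the macrophages.

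Per the gene models of GRCm38 (mm10), all 10 genes are protein-coding. The CC genes lie on chromosome 11: Ccl2 at chr11:82035571-82037453 and Ccl12 at chr11:82101845-82103400, both on the plus strand, then Ccl9 at chr11:83572919-83578636, Ccl6 at chr11:83587882-83593087 and Ccl3 at chr11:83647844-83649355 on the minus strand, and Ccl4 at chr11:83662584-83664683 on the plus strand. The CXC genes lie on chromosome 5: Pf4 at chr5:90772435-90773383, Cxcl1 at chr5:90891241-90893115 and Cxcl2 at chr5:90903871-90905938 on the plus strand, and Cxcl10 at chr5:92346638-92348889 on the minus strand. Cxcl10 shares 133 exonic bases with Art3 on the opposite strand, and whether counting used the strand is not given in the sources used here. The coordinates cover whole genes, exons, introns and UTRs together.

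Promoters are shown for Cxcl1 and Cxcl2, whose UMIs varied together from cell to cell, for Cxcl10, which moved apart from the others in dividing cells, and for Ccl3, which is high in basophil/mast cells and has no match, as a contrast. Sequences are from the RefSeq table (GRCm38.p6), which matched 8 of the 10 genes. Each runs 5′ to 3′ on the gene's strand and ends 31 bases before the start site. Capitals mark matches to 3 motifs, searched on both strands: the kappaB-type GGGA, any 2 bases, T, any base, CC, as NF-kB factors bind, the AP-1 site TGANTCA, and the interferon-type GAAA, any 2 bases, GAAA. The Cxcl1 and Cxcl2 matches on opposite strands overlap and are drawn as 1 run.
Cxcl1 (chr5:90891125-90891214, plus strand): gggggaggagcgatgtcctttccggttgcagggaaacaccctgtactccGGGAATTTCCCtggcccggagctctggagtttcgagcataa
Cxcl2 (chr5:90903779-90903868, plus strand): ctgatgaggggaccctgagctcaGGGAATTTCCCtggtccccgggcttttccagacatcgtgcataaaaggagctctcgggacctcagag
Cxcl10 (chr5:92348920-92349129, minus strand): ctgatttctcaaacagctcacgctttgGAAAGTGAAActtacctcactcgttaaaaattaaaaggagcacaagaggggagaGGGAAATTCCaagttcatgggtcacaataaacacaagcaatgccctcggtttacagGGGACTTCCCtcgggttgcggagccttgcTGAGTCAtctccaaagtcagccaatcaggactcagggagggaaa
Ccl3 (chr11:83649409-83649498, minus strand): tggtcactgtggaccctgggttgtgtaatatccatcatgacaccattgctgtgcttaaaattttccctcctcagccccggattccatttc

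Cxcl1 and Cxcl2 carry the same kappaB-type run, from 71 and 97 bases before the start. Cxcl10 holds 2 kappaB-type matches, 1 AP-1 match and 1 interferon-type match. Over windows of 250 bases the Ccl9 window holds 1 AP-1 match, TGAATCA, and the Ccl3, Ccl6, Ccl12 and Pf4 windows hold none of the 3. Of 32851 such windows, 3.33% hold the kappaB-type letters, 6.75% the AP-1 letters and 2.98% the interferon-type letters. These are letter matches in short windows and say nothing of binding.

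The cell classes divided the 10 genes into 2 sets. Macrophages held transcripts of all 10, and basophil/mast cells held Ccl3, Ccl4, Ccl6, Ccl9 and Cxcl2 but had 0 to 2 UMIs of the other 5. In epithelium no gene was above 7.17 CPM.

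**Figure D1:**
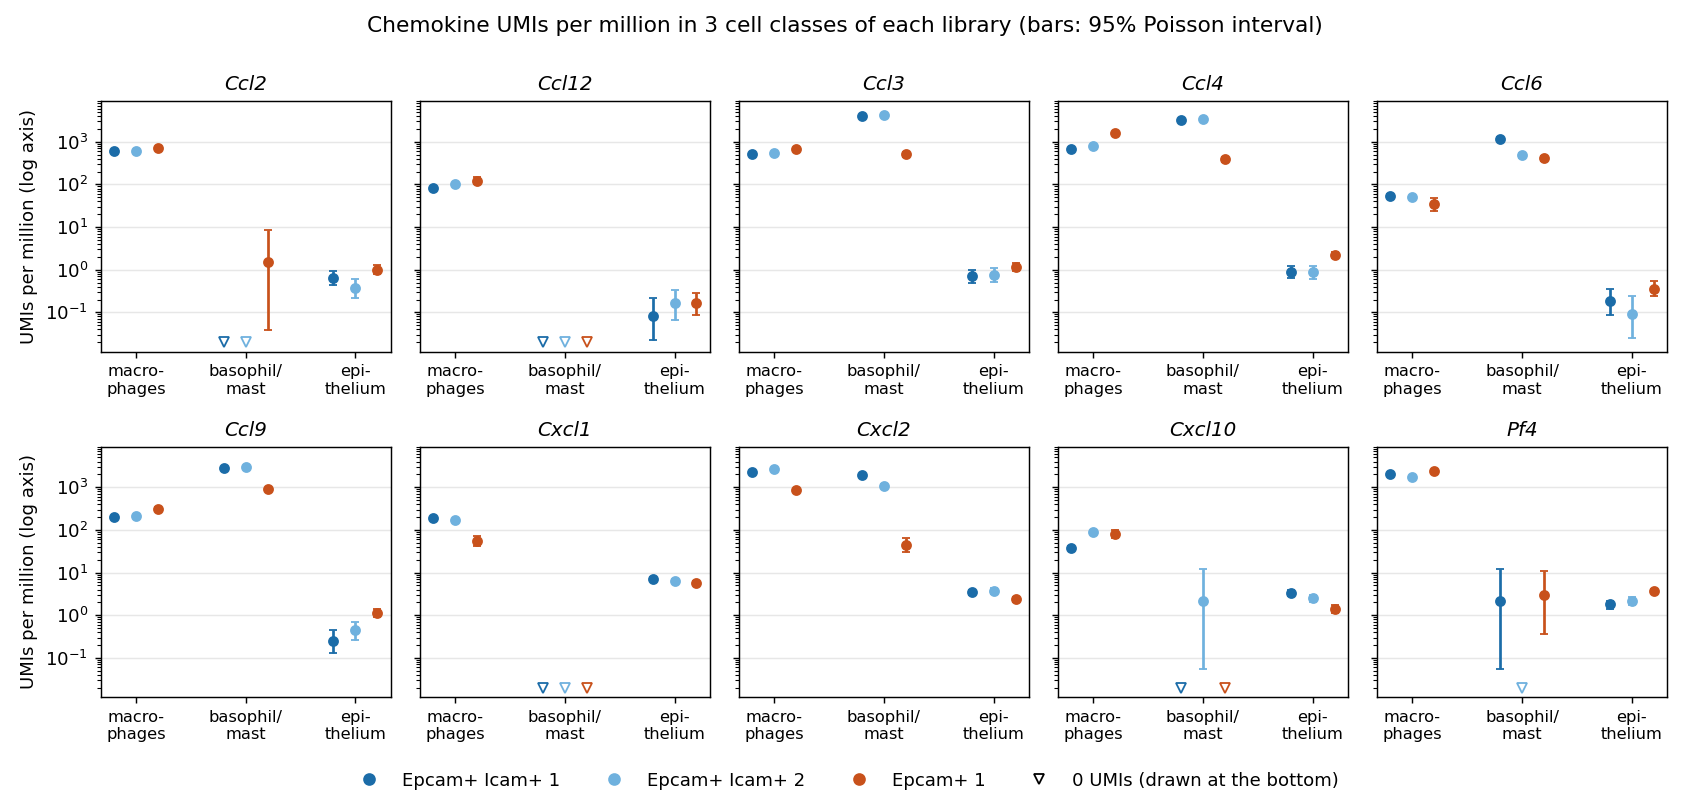
CPM (log axis) of each chemokine in macrophages, basophil/mast cells and epithelium, 1 point per library with its 95% Poisson interval for counting error, and open triangles for 0 UMIs. Ccl2, Ccl12, Cxcl1, Cxcl10 and Pf4 are high in macrophages only among the 3 classes drawn, and the Epcam+ point (orange) lies below both Epcam+ Icam+ points for Ccl3, Ccl4, Ccl6, Ccl9 and Cxcl2 in basophil/mast cells.

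Ccl2 and Ccl12 attract monocytes through the receptor Ccr2. Ccl2 stood at 594, 605 and 704 CPM in macrophages, at 0, 0 and 1.53 CPM (0, 0 and 1 UMI) in basophil/mast cells and at 0.652, 0.370 and 1.00 CPM in epithelium. Ccl12 stood at 82.9, 99.98 and 123 CPM in macrophages and at 0 UMIs in all 3 sets of basophil/mast cells. Set against the level that 3 counts per library would give, the macrophage level of Ccl12 was at least 12.8-fold, 15.4-fold and 26.9-fold higher. For Ccl2 the bound was at least 92.0-fold and 93.0-fold in the Epcam+ Icam+ libraries. For both genes macrophages were the highest of the 3 classes in each library, which describes genes chosen by their myeloid counts.

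Ccl3 and Ccl4, also called MIP-1 alpha and beta, attract monocytes and lymphocytes, and Ccl3 acts through Ccr1. Ccl3 stood at 3940, 4161 and 503 CPM in basophil/mast cells, and at 512, 547 and 665 CPM in macrophages. Ccl4 stood at 3243, 3332 and 387 CPM in basophil/mast cells, and at 664, 791 and 1635 CPM in macrophages. The order of the classes turned between the sorts. Basophil/mast cells held 7.70 and 7.61 times the macrophage level of Ccl3 in the Epcam+ Icam+ libraries, and 0.756 times in the Epcam+ library. For Ccl4 the same ratios were 4.88, 4.21 and 0.237. Epithelium held 0.715 to 1.18 CPM of Ccl3 and 0.878 to 2.18 CPM of Ccl4.

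Ccl6 and Ccl9 act through Ccr1. Ccl6 stood at 1181, 486 and 410 CPM in basophil/mast cells and at 53.4, 50.05 and 34.3 CPM in macrophages, which is 22.1, 9.71 and 11.9 times as much. Ccl9 stood at 2768, 2963 and 898 CPM in basophil/mast cells and at 199, 217 and 316 CPM in macrophages, 13.9, 13.7 and 2.84 times as much. These 2 genes were higher in basophil/mast cells in all 3 libraries. In macrophage clusters, cells with under 5 C1q UMIs (49 and 59 in the Epcam+ Icam+ libraries, 2 in the Epcam+ library) held 346 and 224 CPM of Ccl6, with 241 and 313 CPM of the monocyte receptor gene Ccr2.

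Cxcl1 and Cxcl2 attract neutrophils through Cxcr2. Cxcl2 stood at 2229, 2746 and 847 CPM in macrophages and at 1937, 1067 and 44.3 CPM in basophil/mast cells, a macrophage level 1.15, 2.57 and 19.1 times as high. Cxcl1 stood at 187, 170 and 54.8 CPM in macrophages and at 0 UMIs in all basophil/mast cells, so that the macrophage level was at least 28.9-fold, 26.2-fold and 11.9-fold higher. The pair thus differed in basophil/mast cells, which held 900, 492 and 29 UMIs of Cxcl2 and none of Cxcl1. In both classes the Epcam+ library was the lowest for Cxcl2.

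Cxcl10 is induced by interferons and attracts T cells and natural killer cells through Cxcr3. It stood at 38.6, 87.8 and 81.7 CPM in macrophages, at 0, 1 and 0 UMIs in basophil/mast cells, and at 3.34, 2.50 and 1.42 CPM in epithelium. The 2 Epcam+ Icam+ libraries differed more from each other than the higher of them did from the Epcam+ library. Pf4, or Cxcl4, is stored in platelet granules and is also made by some tissue macrophages. Pf4 stood at 2008, 1777 and 2422 CPM in macrophages, at 1, 0 and 2 UMIs in basophil/mast cells and at 1.79, 2.20 and 3.69 CPM in epithelium. The 7 platelet and megakaryocyte markers summed to 3.61, 4.18 and 7.42 CPM in the same macrophages, with none at 20 CPM, and 2, 3 and 4 of them at 0.

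To read the low epithelial values, each was set against the macrophage level of the same library, beside 9 genes typical of macrophages. Those genes, C1qa among them, stood in epithelium at 0.0137% to 0.180%, 0.0447% to 0.122% and 0.106% to 0.292% of their macrophage level in the 3 libraries. The limit of under 5 C1q UMIs on epithelial barcodes caps C1qa, C1qb and C1qc there by definition. The tops of the ranges were Csf1r, Csf1r and Tyrobp, which that limit did not use. How far the limit lowers them or the chemokines was not tested. Ccl2 and Ccl4 lay within the range of their library in all 3. Ccl12, Ccl3, Cxcl2 and Pf4 lay within it in the first and the Epcam+ library and above it in the second, at 0.162%, 0.140%, 0.136% and 0.124%, with Poisson intervals that reach into the range. Ccl9 stood at 0.127%, 0.202% and 0.366%, above the range in the second and the Epcam+ library. Ccl6 stood above it in each library, at 0.355%, 0.185% and 1.05% on 9, 4 and 26 UMIs, and with its interval in the Epcam+ library. Whether these UMIs come from epithelial cells or from free RNA was not tested.

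Cxcl1 and Cxcl10 stood above that range with their whole interval in each library. The epithelial level of Cxcl1 was 3.84% (95% Poisson interval 3.44% to 4.27%), 3.72% (3.29% to 4.18%) and 10.5% (9.50% to 11.6%) of the macrophage level. That of Cxcl10 was 8.66% (7.37% to 10.1%), 2.84% (2.33% to 3.43%) and 1.74% (1.42% to 2.11%). After thinning every cell to 3000 UMIs, 42 of 2226, 24 of 1978 and 42 of 2408 epithelial cells had a UMI of Cxcl1 (1.89%, 1.21% and 1.74%; unthinned 7.33%, 6.79% and 9.34%), while 77 of 407, 75 of 389 and 2 of 43 macrophages did. The intervals cover counting error only.

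**Figure D2:**
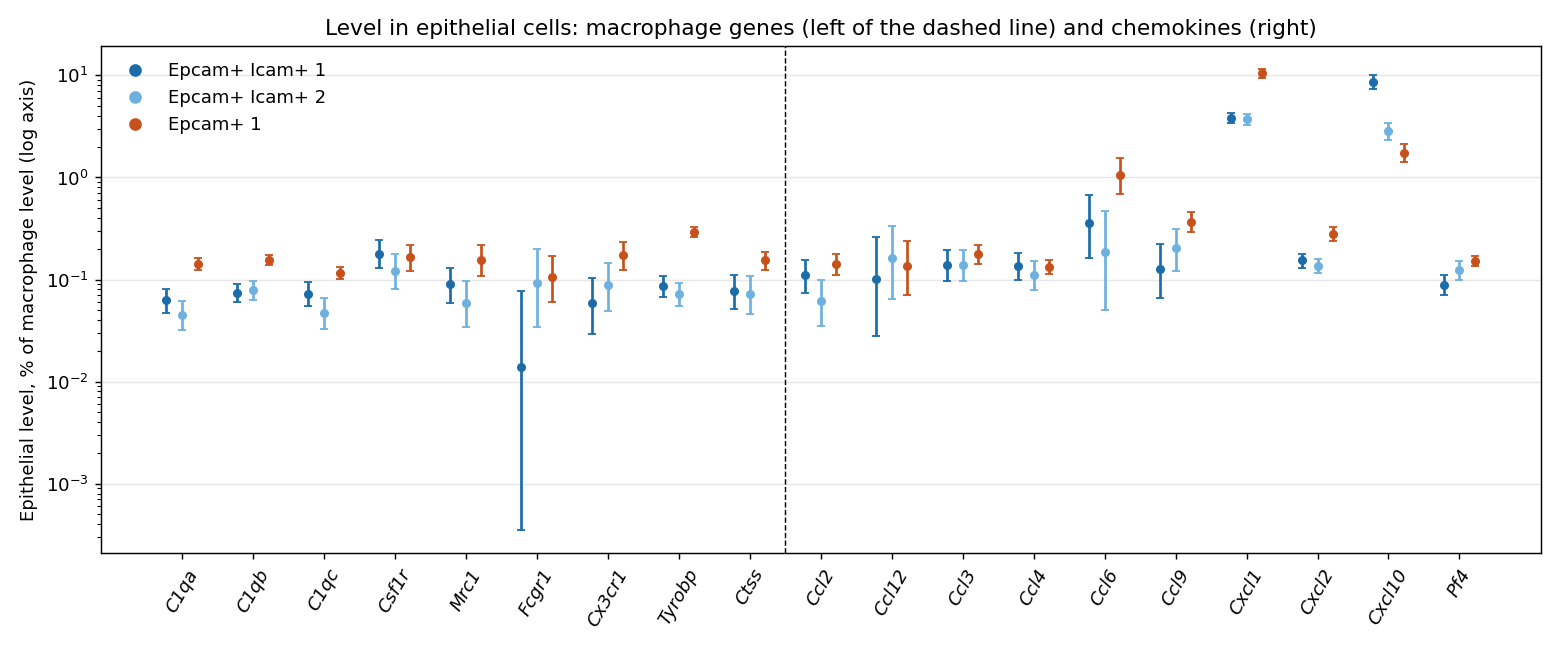
Level in epithelial cells as a percent of the level in macrophages of the same library (log axis), with 95% Poisson intervals for the epithelial count, for 9 macrophage genes (left of the dashed line) and the 10 chemokines (right). Cxcl1 at 3.72% to 10.5% and Cxcl10 at 1.74% to 8.66% lie above every macrophage gene, of which the highest point is Tyrobp at 0.292%. The points of C1qa, C1qb and C1qc are capped by the limit of under 5 C1q UMIs on epithelial barcodes.

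The transcripts were spread unevenly over cells. In macrophages thinned to 3000 UMIs, Cxcl2 was found in 71.5%, 71.0% and 48.8% of cells and Pf4 in 69.3%, 68.1% and 83.7%. Cxcl10 was found in 6.63%, 8.997% and 16.3%, and Ccl12 in 17.0%, 18.0% and 16.3%. The 10% of macrophages with most UMIs of a gene held 93.6%, 94.5% and 79.5% of all Cxcl10 UMIs, 68.8%, 62.3% and 64.0% of Ccl2 and 38.1%, 34.3% and 27.7% of Pf4. Cxcl10 was thus carried by few cells, and Pf4 by most.

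A single barcode weighed heavily where cells were few. In the Epcam+ library the highest of 45 macrophages for each gene, which need not be the same cell, held 35.3% of the Ccl12 UMIs, 32.2% of Cxcl1, 28.1% of Cxcl2 and 25.0% of Cxcl10. The highest of its 23 basophil/mast cells for each gene held 52.0% of the Ccl3 UMIs, 63.2% of Ccl4 and 79.3% of Cxcl2. In the Epcam+ Icam+ libraries the highest macrophage held at most 18.7% of any chemokine's UMIs, and that was for Cxcl10. A thinned macrophage had UMIs of a median of 3, 3 and 4 of the 10 genes, and a basophil/mast cell of 4, 3 and 1, while 94.7%, 96.3% and 94.7% of epithelial cells had none.

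**Figure D3:**
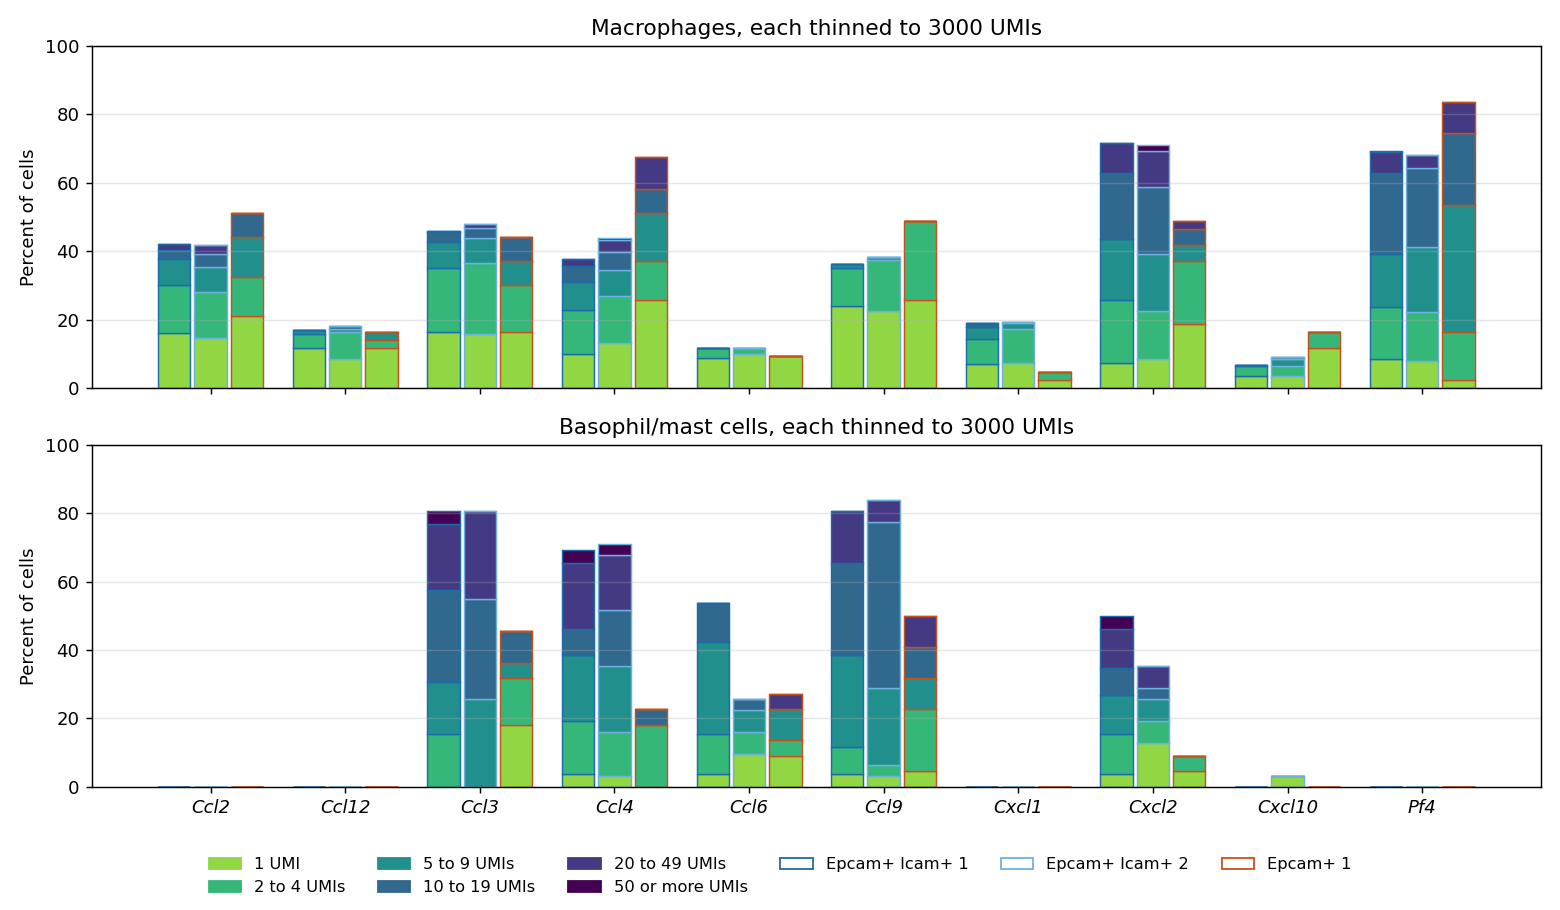
Percent of macrophages (top) and basophil/mast cells (bottom) with at least 1 UMI of each chemokine after thinning to 3000 UMIs, split by the number of UMIs, with 1 bar per library. Macrophage bars are tallest for Cxcl2 and Pf4 and low for Cxcl10, and in basophil/mast cells the Ccl3 bars reach 80.8%, 80.6% and 45.5%.

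Within the macrophages, cluster 7, led by Pf4, Mrc1 and Lyve1, and cluster 8, led by Lyz2, S100a4 and Ccr2, held different chemokines. Chemokine genes were left out of the clustering, and the levels by cluster are a description. The Epcam+ Icam+ libraries had 239 and 210 macrophages in cluster 7 and 153 and 160 in cluster 8. Pf4 stood at 3176 and 2950 CPM in cluster 7 and at 279 and 233 CPM in cluster 8. Ccl4 stood at 1002 and 1317 against 192 and 141 CPM, Ccl2 at 783 and 858 against 336 and 290 CPM, and Ccl12 at 121 and 149 against 26.6 and 29.9 CPM. Ccl6 had the opposite order, at 36.0 and 30.3 CPM in cluster 7 and 78.6 and 74.8 CPM in cluster 8. Ccl9 was close to even, at 192 and 228 against 212 and 207 CPM.

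Over single macrophages of the Epcam+ Icam+ libraries (407 and 389 thinned cells, 4938 genes compared), the genes most like each chemokine were often chemokines. The mean Pearson correlation of log counts was 0.68 between Ccl3 and Ccl4, 0.63 between Ccl2 and Ccl7, another Ccr2 ligand, and 0.50 between Ccl2 and Ccl4. Ccl12 was most like Ccl2 (0.41), and Cxcl10 most like Ccl4 (0.31). Cxcl2 was most like Gadd45b (0.47) and Cxcl1 (0.40). Pf4 was most like Mrc1 (0.58), Blvrb (0.52) and Selenop (0.50). Ccl6 and Ccl9 had no gene above 0.21 and 0.18. Cells of a library share depth and processing, so these values describe the libraries and carry no test.

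Other genes of the chemokine system placed the 10 among possible partners. Macrophages held the ligand genes Ccl7 (201, 238 and 197 CPM), Ccl24 (209, 190 and 213 CPM) and Cxcl3 (215, 181 and under 20 CPM). They also held the receptor genes Cx3cr1 (396, 392 and 338 CPM), Ccr1 (245, 242 and 190 CPM) and Ccr2 (88.5, 88.1 and 38.1 CPM). Cxcr4, the receptor of Cxcl12, stood at 146 and 145 CPM in basophil/mast cells of the Epcam+ Icam+ libraries and under 20 CPM in the Epcam+ library. A small cluster led by major histocompatibility class II genes, of 23, 18 and 8 cells, held Ccl17 (837, 1484 and 139 CPM) and Ccr7 (769, 719 and 529 CPM) with little Pf4 (112, 0 and 0 CPM, the first from 1 cell). Epithelium held the ligand genes Cxcl16 (51.2, 50.1 and 31.0 CPM), Cxcl15 (33.7, 35.3 and 64.5 CPM) and Ccl27a (25.3, 24.5 and 32.3 CPM). These genes also had enough UMIs to be tested in macrophages.

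The first contrast set macrophages of the Epcam+ Icam+ libraries against those of the Epcam+ library. Counts summed per library were fitted with edgeR's quasi-likelihood test, with Benjamini-Hochberg adjustment over 11550 genes. The Epcam+ side is 1 library, so standard errors and calls in this contrast, in every cell class, hold no spread of that side. The spread they hold is that of the 2 Epcam+ Icam+ libraries, shared across genes by edgeR. A gene's own spread can thus be larger than its error. Cxcl10, at 38.6 and 87.8 CPM in macrophages of those 2 libraries, has an error of 0.16. The errors and calls compare these libraries and support no difference between the sorts as such, and the adjusted p of called genes is not given. Cxcl1 was higher in the Epcam+ Icam+ libraries by 1.80 ± 0.16 on the log2 scale (SE) and Cxcl2 by 1.66 ± 0.08, both in 2 of 2 libraries against 1. Ccl6 was higher by 0.69 ± 0.22. Ccl4 was lower (-1.07 ± 0.07), as were Ccl9 (-0.50 ± 0.10), Ccl12 (-0.33 ± 0.14), Pf4 (-0.26 ± 0.07) and Ccl3 (-0.23 ± 0.08). Ccl2 (-0.13 ± 0.08, adjusted p = 0.19) and Cxcl10 (-0.27 ± 0.16, adjusted p = 0.18) were not called.

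All 10 genes were tested and 8 were called, 3 higher and 5 lower. The background is high: 38.4% of all genes tested were called, 21.5% higher and 16.9% lower. The calls rest on 1 residual degree of freedom. With stricter cells, under which the Lyz2-led cluster had no name and left the macrophages, edgeR called 0 genes, although 4023 had an unadjusted p under 0.05, and Cxcl1 and Cxcl2 had adjusted p = 0.072 and 0.071. With no limit on epithelial genes, the estimates of Ccl2, Ccl12, Ccl3, Ccl4, Cxcl10 and Pf4 all turned positive, that of Ccl4 at 0.035 without a call. Cxcl1, Cxcl2 and Ccl6 had positive differences under all 10 alternatives, though each lost its call under at least 1 of the 8 with a test.

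Macrophage clusters moved with the library. Of the Epcam+ macrophages, 40 of 45 lay in cluster 10, led by Spp1, Gpx3 and Folr2, which held 21 of 413 and 33 of 403 macrophages of the other libraries. Against the Lyve1-bearing cluster 7 of the Epcam+ Icam+ libraries, those 40 cells had less Cxcl2 (837 CPM against 2617 and 3586) and Cxcl1 (40.0 against 248.9 and 235) and more Ccl4 (1764 against 1002 and 1317). Within cluster 10 itself Cxcl2 had the opposite order, at 92.2 and 200.3 CPM in the Epcam+ Icam+ cells. Those values rest on 10 and 27 UMIs. The cells were sparse, since 3 counts would give 27.6 and 22.3 CPM there, against 3.07 CPM in the 40 Epcam+ cells. At Leiden resolution 2 the cluster led by Spp1 and Gpx3 held 0, 1 and 126 barcodes, so the order within cluster 10 may not compare like cells. The part of cluster makeup in these differences was not tested.

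Of the other chemokine ligands tested in macrophages, 3 of 9 were higher and 2 lower. Cxcl3, another Cxcr2 ligand, was higher by 5.25 ± 0.27 and Cxcl16 by 1.48 ± 0.20. Of 11 receptors, 5 were higher, among them Cxcr4 (2.25 ± 0.37) and Ccr2 (1.31 ± 0.19), and Cxcr3 was lower (-2.01 ± 0.51). NF-kB response genes went both ways, 7 of 17 higher, such as Ptgs2 (2.65 ± 0.37), and 4 lower, such as Tnf (-1.99 ± 0.12). Of 18 immediate early genes, which tissue dissociation can induce, 5 were higher and 7 lower. Over all genes tested, 21.5% were called higher and 16.9% lower, and nothing particular is read from these counts. Median log2 differences were 0.01, 0.46, 0.48 and -0.02 for these 4 lists, against 0.10 over all genes. Icam1, the gene of the sorted protein, is in the NF-kB list. Its RNA differed by -0.76 ± 0.14 in macrophages, -0.76 ± 0.36 in basophil/mast cells (not called) and 0.15 ± 0.03 in epithelium. The surface protein is not measured by these counts.

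In basophil/mast cells the same contrast gave 1 direction. Ccl3 was higher in the Epcam+ Icam+ libraries than in the Epcam+ library by 3.24 ± 0.14, Ccl4 by 3.32 ± 0.15, Cxcl2 by 5.30 ± 0.25, Ccl9 by 1.91 ± 0.14 and Ccl6 by 1.24 ± 0.21 on the log2 scale. As above, the Epcam+ side adds no spread to these errors, and its highest cell held 52.0% of the Ccl3 UMIs. The 5 genes that passed the filter on low counts were all called higher, where 27.6% of 5734 genes were called, 15.9% higher and 11.7% lower. The other 5 had too few UMIs to be tested. With DESeq2 Ccl6 had adjusted p = 0.60 and the other 4 still passed. Without the first Epcam+ Icam+ library the difference of Ccl6 was 0.57 and without the second 1.79.

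The share of cells showed the same order as the sums. After thinning, 80.8% (exact binomial interval 60.6% to 93.4%), 80.6% (62.5% to 92.5%) and 45.5% (24.4% to 67.8%) of basophil/mast cells had a UMI of Ccl3. For Ccl4 the shares were 69.2%, 71.0% and 22.7%, Ccl9 was found in 21 of 26, 26 of 31 and 11 of 22 cells, and Cxcl2 was found in 13 of 26, 11 of 31 and 2 of 22 cells. Ccl6 differed, with 53.8%, 25.8% and 27.3%, so that the second Epcam+ Icam+ library lay with the Epcam+ library.

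NF-kB response genes in basophil/mast cells were higher in 13 of 16 tested and lower in 0, with a median of 2.63 against 0.00 over all genes, of which 15.9% were called higher and 11.7% lower. Il6 (3.62 ± 0.22), Il1b (2.77 ± 0.19) and Tnfaip3 (3.60 ± 0.34), a cytokine pair and a feedback inhibitor, were among them. Ccl1, a ligand of Ccr8, was lower (-4.54 ± 0.48), Cxcr4 was higher by 3.78 ± 0.48 and Ccr1 by 2.79 ± 0.43. Of 16 immediate early genes 5 were higher and 1 was lower. Median depth moved with the library, at 14696, 12280 and 26430 UMIs per gated cell, as did the summed basophil/mast markers, at 9699, 11552 and 15220 CPM. Markers of other cell types went both ways in the gated cells. Macrophage, monocyte and lymphoid markers were higher in the Epcam+ Icam+ libraries, the side on which the chemokines were high. The 15 macrophage markers summed to 4575, 4905 and 2408 CPM (2, 3 and 5 at 0). The 7 monocyte markers summed to 1846, 2300 and 974 CPM (1, 0 and 2 at 0), and the 8 lymphoid markers to 489, 547 and 165 CPM (4 at 0 in each). The Epcam+ library was also lowest for platelet and megakaryocyte (34.4, 60.7 and 16.8 CPM), endothelial (49.5, 45.6 and 26.0 CPM) and neutrophil markers (2.15, 32.5 and 1.53 CPM). Most markers of these lists were at 0. For mesenchymal markers it lay between the others (40.9, 10.8 and 29.1 CPM). Epithelial markers, at 1930, 1152 and 2861 CPM, and erythroid markers, at 4.30, 6.51 and 26.0 CPM, were highest in the Epcam+ library. The part of all these markers in the result was not tested.

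**Figure D4:**
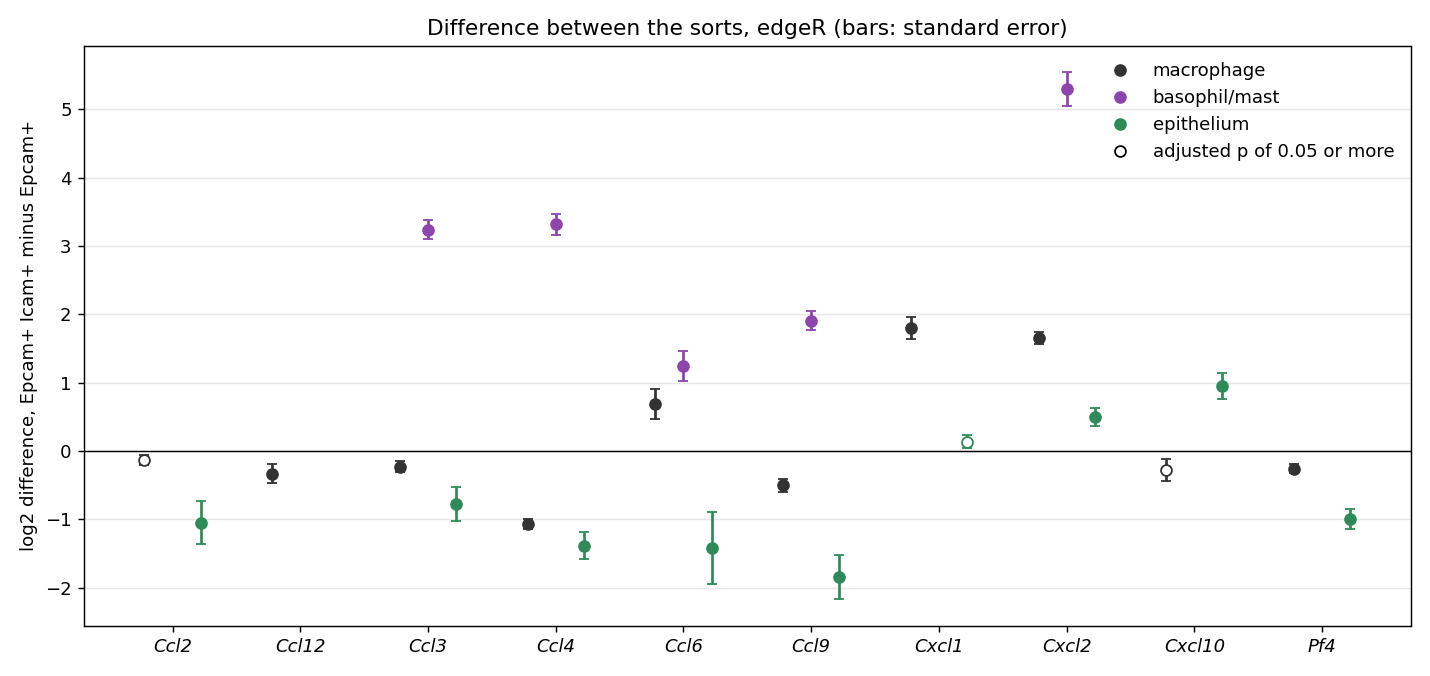
log2 difference between the libraries of both sorts (Epcam+ Icam+ minus Epcam+, with a standard error that holds no spread of the single Epcam+ library) for each chemokine that passed the filter on low counts in macrophages, basophil/mast cells and epithelium, open where the adjusted p was 0.05 or more. Purple points (basophil/mast) lie between 1.24 and 5.30, and black points (macrophages) lie between -1.07 and 1.80.

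The differences in basophil/mast cells were set against those in macrophages. An edgeR model of both classes, with library as a block and added after the data were seen, gave a basophil/mast difference minus macrophage difference of 4.43 ± 0.17 for Ccl4, 3.66 ± 0.27 for Cxcl2, 3.51 ± 0.16 for Ccl3 and 2.45 ± 0.17 for Ccl9. The model has 1 residual degree of freedom and 1 Epcam+ library, so it describes these 3 libraries. These 4 genes were called, and of all genes tested 3.13% were called, 2.4% with a positive and 0.737% with a negative difference. The 4 were called in each of the 7 alternatives with a test. Ccl6 was not called, at 0.50 ± 0.35. In simulated data this model recovered 10% of log2 changes of 1, so the missing call says little about a change of that size. The other 5 chemokines have 0 to 2 UMIs per library in basophil/mast cells, and their estimates are not given. Positive values were not particular to chemokines. In the same model the median was 1.95 for NF-kB response, 0.70 for immediate early, 1.60 for chemokine receptor and 1.24 for interferon response genes. It was -0.47 for other chemokine ligands and -0.12 over all genes.

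In epithelium 9 of the 10 genes passed the filter on low counts, where 78.5% of 14748 genes were called between the same libraries, 39.4% higher and 39% lower. Cxcl10 was higher in the Epcam+ Icam+ libraries by 0.95 ± 0.18, and Cxcl1 differed by 0.14 ± 0.09 (adjusted p = 0.18). Cxcl2 was higher by 0.50 ± 0.14. Ccl2, Ccl3, Ccl4, Ccl6, Ccl9 and Pf4 were lower, with log2 differences from -0.78 (Ccl3) to -1.85 (Ccl9). Of the 9 macrophage genes above, 7 had a lower epithelial level in both Epcam+ Icam+ libraries than in the Epcam+ library, such as C1qa at 1.20 and 0.901 against 2.87 CPM. Csf1r (0.925, 0.624 and 0.668 CPM) and Mrc1 (0.568, 0.370 and 0.459 CPM) did not. The part of such transcripts in the epithelial differences was not tested.

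The second question was whether dividing macrophages hold the same chemokines as other macrophages of their library. Dividing cells had at least 2 UMIs of 10 mitosis genes after thinning, and numbered 127, 120 and 23 against 280, 269 and 20 others. Levels were compared within libraries by edgeR over 10151 genes, with library as a block and 2 residual degrees of freedom. Dividing cells were deeper, with median UMIs of 30736, 28276 and 27623 against 20848, 21791 and 22007.

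Cxcl10 was higher in dividing macrophages of all 3 libraries, at 56.8, 141 and 102 TMM-scaled CPM against 27.04, 61.0 and 47.6. The difference was 1.15 ± 0.10 on the log2 scale (adjusted p = 6.4e-08). Few cells carried it. A UMI of Cxcl10 was found in 12 of 127, 13 of 120 and 4 of 23 dividing cells and in 15 of 280, 22 of 269 and 3 of 20 others, with exact binomial intervals that overlap in every library. A single dividing cell held 31.0%, 21.5% and 33.3% of the dividing cells' Cxcl10 UMIs.

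Cxcl1 was lower in dividing macrophages, at 125, 113 and 32.4 TMM-scaled CPM against 239, 218 and 80.1, a difference of -0.96 ± 0.09 (adjusted p = 1.2e-07). Ccl9 was lower as well, at 151, 188 and 228 against 241, 251 and 413, a difference of -0.60 ± 0.09 (adjusted p = 5.4e-05). The dividing value was the lower one in every library for both genes. In the Epcam+ library Cxcl1 rested on 21 UMIs in dividing cells and 37 in others, and the highest cell held 52.4% and 51.4% of them. Shares of thinned cells with a UMI had exact binomial intervals that overlap in every library for both genes. In the first Epcam+ Icam+ library they were 15.7% against 20.4% for Cxcl1 and 29.9% against 38.9% for Ccl9. Ccl6 (-0.50 ± 0.13, adjusted p = 0.0098) and Pf4 (-0.32 ± 0.09, adjusted p = 0.019) were lower in 3 of 3 libraries. Ccl2, Ccl3, Ccl4, Ccl12 and Cxcl2 did not pass, with differences from -0.39 (Ccl12) to -0.03 (Ccl2) and adjusted p from 0.10 to 0.90. For Ccl2, Ccl3 and Cxcl2 the Epcam+ library had the order opposite to that of the other libraries. Without it, edgeR called Ccl2 (-0.21, adjusted p = 0.0082), Ccl3 (-0.46, adjusted p = 1.3e-06), Ccl4 (-0.40, adjusted p = 0.0071) and Cxcl2 (-0.46, adjusted p = 2.2e-10) lower as well.

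The count of 5 of 10 called, 1 higher and 4 lower, compares with 15.6% of all genes called, 7.63% higher and 7.94% lower. Cxcl10, Cxcl1 and Ccl9 passed under each of 13 alternatives with the library block. Pf4 passed under 4 and Ccl6 under 8 of them. Without the block, where differences between libraries count as spread, none of the 10 passed (Cxcl10, adjusted p = 0.53). Ccl6 and Pf4 also lost their calls when cells were thinned to 3000 UMIs before summing, with adjusted p = 0.63 for Ccl6 and 0.70 for Pf4. Without the first Epcam+ Icam+ library their adjusted p was 0.089 and 0.11, and without the second that of Pf4 was 0.38.

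**Figure D5:**
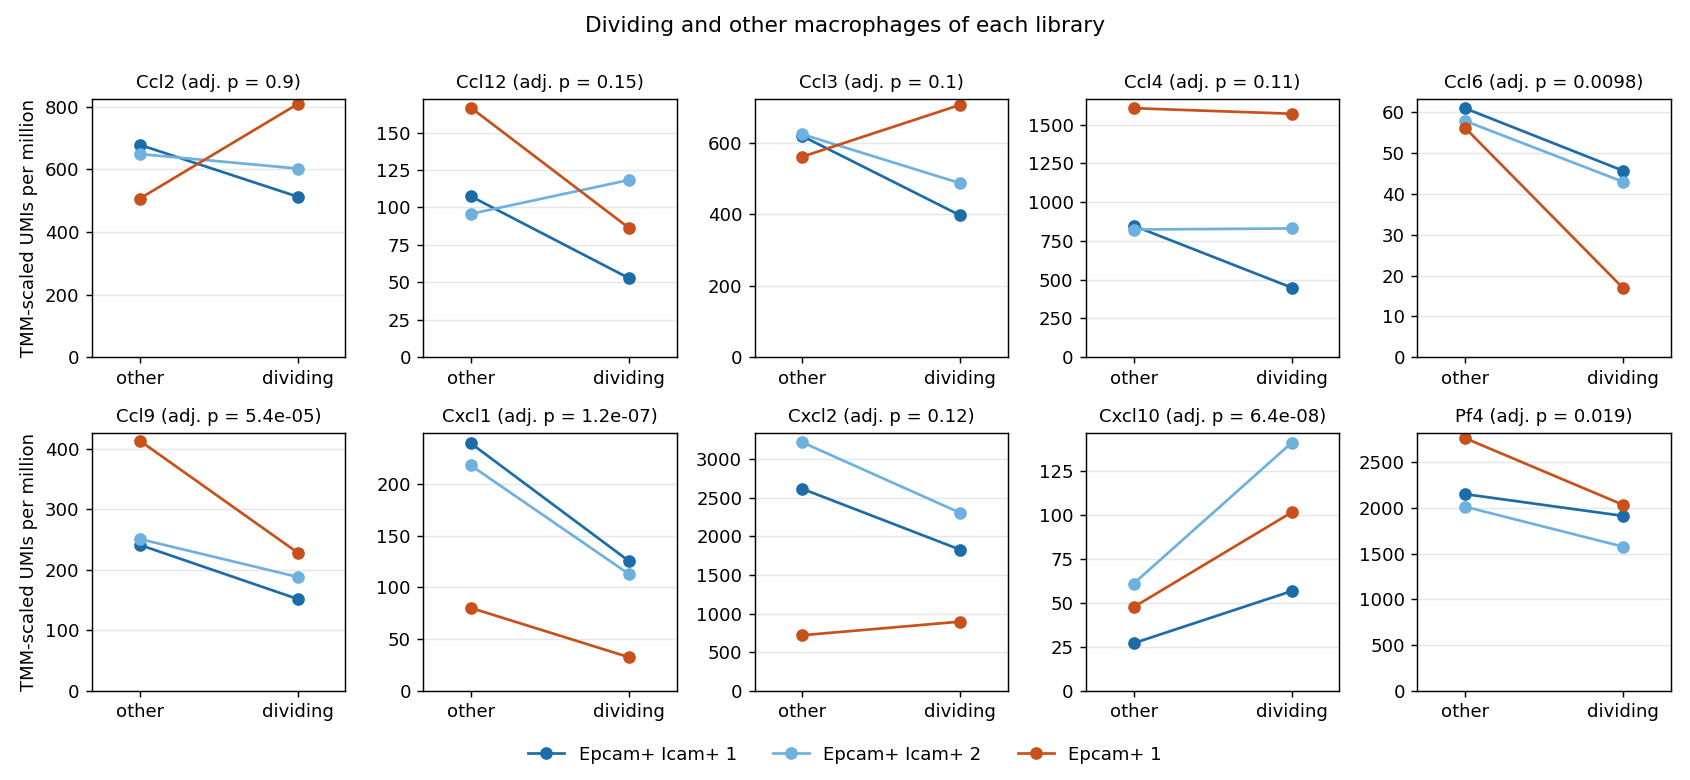
TMM-scaled CPM of each chemokine in dividing and other macrophages, with 1 line per library and each vertical axis starting at 0, and the adjusted p of edgeR above each panel. All 3 lines rise for Cxcl10 and all 3 fall for Cxcl1, Ccl9, Ccl6 and Pf4, while the Epcam+ line runs opposite to the others for Ccl2, Ccl3 and Cxcl2.

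Inside the clusters the order of Cxcl1 and Ccl9 was the same. In cluster 7 Cxcl1 stood at 203 and 176 CPM in dividing cells and 284 and 274 CPM in others, and in cluster 8 at 3.63 and 3.83 against 156 and 130 CPM. Cxcl10 in cluster 7 stood at 60.8 and 226 CPM in dividing cells against 41.2 and 101 CPM. In cluster 8 it stood at 56.7 against 6.23 CPM in the first Epcam+ Icam+ library and at 9.19 against 9.03 CPM in the second, where dividing and other cells were thus even. Cluster 7 made up 64.6% and 60.8% of dividing and 55.7% and 50.9% of other macrophages in those libraries, and the part of this shift was not tested.

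Other chemokine genes fell in dividing macrophages or did not pass, where 7.63% of all genes were called higher and 7.94% lower. Of 8 other ligands tested, 3 were lower and 0 higher: Cxcl16 (-0.66 ± 0.09), Cxcl3 (-0.60 ± 0.11) and Ccl24 (-0.30 ± 0.09). Of 7 receptors, 3 were lower, Ccrl2 (-0.78 ± 0.09), Cxcr4 (-0.57 ± 0.17) and Ccr1 (-0.47 ± 0.09), and 0 higher. Of 12 interferon response genes tested, 5 were lower and 0 higher, with Isg15 at -1.16 ± 0.20 and Irf7 at -0.79 ± 0.21. Cxcl10, itself an interferon-induced gene, stood higher, while 5 of these genes stood lower and 7 were not called. These are sums per library, and whether the same cells carried both was not tested. None of 17 immediate early genes passed. The medians of the ligand, receptor and interferon lists were -0.40, -0.40 and -0.59, against -0.04 over all genes.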

How the data were processed

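The authors deposited UMI count matrices of 3 libraries. The submitters' processing notes name Cell Ranger 2.1.1 and mm10, while the file headers name 5.0.1 (Epcam+ Icam+) and 3.0.2 (Epcam+). The chemokines, gene lists and tests were chosen with earlier results of these data known, and the limit of 0.05% on epithelial genes and the model of both classes after the data were seen. Named genes are the 10 chemokines, system genes that passed a test or reached 20 CPM, class-defining genes and the 3 genes most like each chemokine.

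Barcodes needed 1000 UMIs, 500 genes and at most 10% mitochondrial UMIs. Doublets were left out by score at 0.8% per 1000 barcodes (129, 115 and 88), since the automatic threshold of the caller marked 0. Genes were joined by Ensembl identifier, and cells clustered with scanpy 1.11.5 (2000 variable genes without chemokines, 30 components, 15 neighbours, Leiden resolution 1) and named from fixed markers. Counts were summed per library and class and tested with edgeR 4.0.16 (TMM, filterByExpr, Benjamini-Hochberg at 0.05). The steps were tested on simulated data. Log2 changes of 1 were recovered for 84% of changed genes in macrophages and 100% in epithelium and in dividing macrophages. In basophil/mast cells 9.18% were recovered, and 10% for the difference of differences. Changes of 2 were recovered for 72.4% and 68% in these last 2. DESeq2 1.42.0 and other scalings, filters and classes were alternatives. Intervals are 95% and cover counting error only.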

Additional observations from a re-analysis of the deposited data

Results flagged for a closer look

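The difference between the Epcam+ Icam+ libraries and the Epcam+ library was not the same in basophil/mast cells and macrophages for 4 chemokines, by an edgeR model of both classes with library as a block. The basophil/mast difference minus the macrophage difference was 4.43 on the log2 scale for Ccl4, 3.66 for Cxcl2, 3.51 for Ccl3 and 2.45 for Ccl9. All rest on 1 Epcam+ library, whose spread is unknown and in which the highest basophil/mast cell for each gene held 63.2% of the Ccl4, 79.3% of the Cxcl2, 52.0% of the Ccl3 and 16.0% of the Ccl9 UMIs. NF-kB response and immediate early genes also had positive medians in this model, at 1.95 and 0.70, and other chemokine ligands a negative one, at -0.47. No group has the 4 samples that a check for outlying libraries needs.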

How the results depend on the processing

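With 1 Epcam+ library, effects of that library and of the sort cannot be told apart, and depth limits the basophil/mast class (0 UMIs of a gene there allow up to 4.59 to 6.51 CPM). Of 385 recomputed chemokine differences with a test 308 kept their side of the threshold and, where called, their direction, 42 lost and 26 gained a call, and 9 turned. The sign, uncalled values included, was kept by 366 of the 385, and by 69 of 71 without a test. Of 630 levels 526 moved by less than their interval.

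The count of genes called between the libraries of both sorts in macrophages was 4438, 1991 with DESeq2, 0 with stricter cells (4023 at an unadjusted p under 0.05 in edgeR) and 7270 with no limit on epithelial genes. In basophil/mast cells it was 1583, 607 with no filter on low counts and 272 with DESeq2. Between dividing and other macrophages it was 1581, 450 with DESeq2, 1044 with stricter cells, 718 with no limit on epithelial genes, 273 after thinning to 3000 UMIs, and from 462 (without Epcam+ Icam+ 1) over 691 (without Epcam+ Icam+ 2) to 2094 when 1 library was left out. Without the replicate block of library it was 124. The difference of differences gave 268 genes, 101 with no filter and 57 with DESeq2. The causes were not tested.

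In macrophages between the sorts, stricter cells turned Ccl12 to 0.10, Ccl3 to 0.079 and Pf4 to 0.22. No limit on epithelial genes turned Ccl2 to 0.78, Ccl12 to 0.93, Ccl3 to 0.93, Ccl4 to 0.035, Cxcl10 to 0.77 and Pf4 to 0.69. That limit was chosen after the data were seen. No paired analysis was possible because the Epcam+ sample is single and carries no replicate number. Leaving out either Epcam+ Icam+ library leaves 1 sample a side, hence values with no test.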
